A study of Mus musculus with 32 samples.

Results

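The comparison described here is the effect of losing Col6a2 in the quadriceps of 25-week-old female mice. Its members were the 8 of 32 libraries in the series that the sample titles mark as female and 25 weeks old. They comprised 4 Col6a2-/- mice and 4 wild-type (WT) mice, with 1 library from each mouse. Col6a2-/- mice were homozygous for the knockout allele Col6a2 tm1(KOMP)Vlcg, which was made in C57BL/6N and crossed for 5 generations to C57BL/6J. WT mice came from the same heterozygous breeding, and the labels name no Cre or drug. All groups of the series come from this breeding, and RNA came from thin frozen sections of whole quadriceps. The other groups, used here only where stated, were 25-week males and 5-week females and males of both genotypes, 4 mice each. The series title asks how collagen VI bears on TGF-β, a growth factor that is stored in the extracellular matrix.

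Collagen VI is a beaded microfibril that surrounds muscle fibres and links the basement membrane to the interstitial matrix. Its common form is built from the chains α1, α2 and α3, encoded by Col6a1, Col6a2 and Col6a3, and a chain that cannot pair with its partners is not secreted as a normal microfibril. In muscle the chains are made mainly by interstitial fibroblasts, and mutations in the human genes cause Ullrich congenital muscular dystrophy and Bethlem myopathy.

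Levels are in TPM, transcript abundance scaled for gene length and library total as computed by the authors. A change is the difference of group means of log2(TPM + 1), Col6a2-/- minus WT, with its standard error (SE) from limma, a linear model fitted across all 12817 genes that reached 1 TPM in at least 4 of the 32 libraries. On this scale, differences of weakly expressed genes appear smaller than they are. A gene is called where its Benjamini-Hochberg adjusted p from limma is under 0.05. The median SE of a change was 0.142, and for 12349 genes (96.3%) the 95% interval of the change was narrower than 2-fold to either side of the estimate.

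All 8 libraries were skeletal muscle by their leading genes. The fast myosin gene Myh4 had 4508 to 4992 TPM in WT and 2878 to 5234 TPM in Col6a2-/- libraries, and the defining T cell genes Cd3d, Cd3e and Cd3g were each at or under 0.241 TPM. Depth, inferred from the deposited values and read only as a relative measure, was 6.87 to 10.38 gigabases in WT and 8.19 to 10.02 in Col6a2-/- libraries. The mitochondrial genome took 33.8% to 38.1% of TPM in WT and 32.4% to 43.4% in Col6a2-/- libraries. Rn7s genes took a further 24.1% to 27.5% in WT and 20.2% to 27.5% in Col6a2-/- libraries. All other genes together had 36.1% to 38.7% and 36.4% to 40.1%.

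Single libraries stood apart in named genes, which were chosen here after their values were seen. Col6a2-/- replicate 1 had 38.3 TPM of the immunoglobulin gene Igkc, against at most 1.36 TPM in the other 7 libraries, and 65.0 TPM of the matrix gene Postn, against at most 13.9. Col6a2-/- replicate 2 had 58.2 TPM of Acly against at most 13.3 elsewhere and 15.0 TPM of Elovl6 against at most 1.93. Col6a2-/- replicate 4 had 17.9 TPM of Sln, an inhibitor of the calcium pump of the sarcoplasmic reticulum, against at most 5.2 elsewhere. It also had the lowest Myh2, at 219 TPM against at least 468 in the other libraries. Where another gene is annotated over the exons of a named gene, its value is uncertain, since the use of strand in counting is not given. This holds for the genes so marked in the text and also for Elovl6, Myh2, Cyp2f2, Junb, Myl4 and Fbxo32.

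Loss of Col6a2 RNA was the one change that passed the test in 25-week females. Col6a2 (ENSMUSG00000020241, GRCm38 chromosome 10, 76595762 to 76623630) had 12.3, 12.2, 13.6 and 13.5 TPM in WT replicates 1 to 4 and 0.0129, 0.00785, 0.0344 and 0.0113 TPM in Col6a2-/- replicates 1 to 4. The groups were far apart and no library went against its label. The change was -3.77 (SE 0.13), with a limma adjusted p of 2.3e-18, and the difference in mean TPM of -12.9 had a two-sided exact permutation p of 0.0286, the smallest that 4 against 4 allows. Col6a2 was thus 1 of 12817 tested genes called by limma (0.0078%), and no gene was called higher.

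The partner chains did not pass the test. Col6a1, for the α1 chain, had 20.4, 21, 19.9 and 16.2 TPM in WT and 45.5, 21.7, 20.4 and 28.6 TPM in Col6a2-/- libraries. Its change was 0.50 (SE 0.26) with all 8 libraries and 0.26 without Col6a2-/- replicate 1, which was the highest of all. Col6a3, for the α3 chain, had 13.0, 13.9, 14.9 and 15.2 TPM in WT and 17.2, 15.3, 17.2 and 25.2 TPM in Col6a2-/- libraries, a change of 0.35 (SE 0.28) that was 0.20 without Col6a2-/- replicate 4. The 2 groups did not overlap for Col6a3, although WT replicate 4 and Col6a2-/- replicate 2 were nearly equal.

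Of the chains that can take the place of α3, Col6a6 had 0.367 to 0.939 TPM in WT and 0.771 to 3 TPM in Col6a2-/- libraries, with a change of 0.56 (SE 0.26) that was 0.33 without Col6a2-/- replicate 1. An antisense gene, Gm38314, overlaps Col6a6. Col6a4 reached at most 0.0078 TPM, and Col6a5 was below the filter. Col6a5 had 0.0333 to 11.25 TPM in Col6a2-/- libraries, and its highest value was again in replicate 1.

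**Figure D1:**
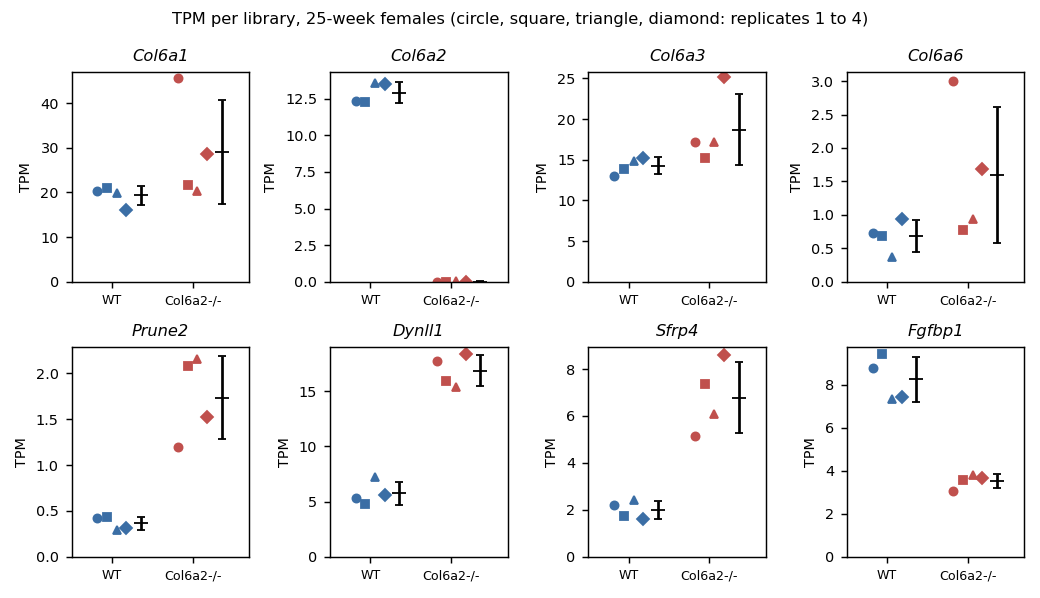
TPM in each 25-week female library for 3 further collagen VI chain genes beside Col6a2 and for 4 genes at the top of the comparison; circle, square, triangle and diamond are replicates 1 to 4, and black bars are the mean ± SD of 4 libraries. Col6a2 lies near 0 in the Col6a2-/- libraries, Prune2, Dynll1 and Sfrp4 are higher and Fgfbp1 lower with no overlap, and Col6a1 and Col6a6 are highest in Col6a2-/- replicate 1.

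The genes next in order of p came close to the threshold without passing it. Prune2, a large gene of the BCH domain family (chromosome 19, 16956118 to 17223932), had 0.420, 0.437, 0.292 and 0.311 TPM in WT and 1.19, 2.08, 2.15 and 1.53 TPM in Col6a2-/- libraries. The lowest Col6a2-/- library lay well above the highest WT library. Its change was 0.99 (SE 0.18), with a limma adjusted p of 0.0525. In 25-week males, which share no mouse with the females, the change was 1.23 and was called, and in 5-week females it was 0.99 and was called. Across the alternative settings and left-out libraries in females it was called in 9 of 19. These include the filter on the 8 libraries of 25-week females, which Prune2 passed only through its Col6a2-/- libraries. Its WT values here were all under 1 TPM, where precision is unknown.

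Dynll1, which encodes a light chain of dynein that also binds many other proteins (chromosome 5, 115297110 to 115300999), had 5.34, 4.77, 7.21 and 5.62 TPM in WT. The Col6a2-/- libraries had 17.8, 16, 15.4 and 18.3 TPM, so that every one of them was above every WT library by more than the spread within either group. The change was 1.42 (SE 0.27), with a limma adjusted p of 0.0656, and it was called in 5 of 20 alternative settings and left-out libraries, with limma adjusted p from 0.0026 with only the 8 libraries to 0.218. In males it was 0.84 and not called, and in 5-week females it was 0.91 and called.

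Sfrp4, a secreted antagonist of Wnt ligands, had 2.22, 1.74, 2.42 and 1.61 TPM in WT and 5.13, 7.35, 6.07 and 8.60 TPM in Col6a2-/- libraries. The change was 1.37 (SE 0.31), with a limma adjusted p of 0.206, and it was called in males (1.72) and in 5-week females (1.02). In 25-week females it was called in 3 of 20 alternatives, and Lgals3, Smpx and Fgfbp1, described next, in 2 of 20 each. Lgals3, the galectin that marks activated macrophages and damaged muscle, had 3.38, 1.68, 1.91 and 1.11 TPM in WT and 5.58, 5.29, 4.14 and 7.63 TPM in Col6a2-/- libraries. Both genes were separated between the groups. For Lgals3 the change was 1.17 (SE 0.26), with a limma adjusted p of 0.189 that reached 0.0476 without WT replicate 1, the highest of the WT libraries.

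Smpx, Mettl21e and Ostn, which are made in the muscle fibre itself, did not pass the test either. They are described as single genes and not as a group. Smpx, a small costamere protein encoded on the X chromosome, had 99.8, 115, 107 and 114 TPM in WT and 141, 148, 161 and 155 TPM in Col6a2-/- libraries, a change of 0.47 (SE 0.11) with a limma adjusted p of 0.239. Mettl21e, a muscle methyltransferase gene, had 0.9 to 1.75 TPM in WT and 2.17 to 5.19 TPM in Col6a2-/- libraries (change 1, SE 0.25). Ostn, which encodes the secreted peptide musclin, was higher with overlap, at 2.98 to 9.55 TPM in WT and 6.23 to 13.9 TPM in Col6a2-/- libraries (change 0.92, SE 0.23). The remaining higher genes that the naming rule gave among genes without overlap were 2310008N11Rik (0.97), Irf4 (0.54) and Dmxl2 (0.49). It also gave Srrm4os (0.86), Rita1 (0.43) and Serpinb6a (0.64), each with an antisense gene overlapping it. Mucl1 (0.92, overlapping between the groups) was called without WT replicate 1, and Fam196b (0.29) and Slc6a7 (0.24), below the filter, were called without a filter.

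Fgfbp1 had the smallest p among the lower genes after Col6a2. It encodes a secreted carrier of fibroblast growth factors (chromosome 5, 43978858 to 43981779) and had 8.77, 9.44, 7.34 and 7.45 TPM in WT and 3.04, 3.55, 3.82 and 3.65 TPM in Col6a2-/- libraries. The groups were separated by more than the range of either. The change was -1.03 (SE 0.24), with a limma adjusted p of 0.209, and it was -0.61 in males and -0.48 in 5-week females, where it was not called either. WT females had more Fgfbp1 than WT males, with mean TPM of 8.25 and 2.90.

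Ppp1r1a, an inhibitor of protein phosphatase 1, had 22.2 to 29.9 TPM in WT and 12.7 to 20.1 TPM in Col6a2-/- libraries (change -0.65, SE 0.17). Mocs2, for molybdopterin synthase, had 17.8, 18.6, 16.3 and 16.2 TPM in WT and 9.92, 8.07, 13.9 and 6.91 TPM in Col6a2-/- libraries. Its change was -0.81 (SE 0.23) in females and 0.52 in males, and the difference of -1.33 between the sexes had a limma adjusted p of 0.99. Also separated in the lower direction were Kcnab1 (-0.53; an antisense gene overlaps it), Cyp4f39 (-0.76) and Efcab6 (-0.59), and AC174678.2 (-0.69), whose exons overlap those of Ipo4 and Tm9sf1.

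Over all tested genes, 462 were higher (3.6%) and 159 were lower (1.24%) at an unadjusted limma p under 0.05, and 487 (3.8%) and 128 (0.999%) had no overlap between the 4 and 4 libraries. A change above 0 was found for 7590 genes (59.2%), with a median change of 0.03. The balance of higher and lower genes depended on scaling. With median-of-ratios size factors 649 were higher and 581 lower at an unadjusted p under 0.05, and with quantile normalization 551 and 536. The counts without overlap were 396 higher and 368 lower, and 351 and 348, under these scalings. The number of higher genes was 286 without WT replicate 4 and 306 without Col6a2-/- replicate 1. The number of lower genes was 97 without WT replicate 2 and 251 without WT replicate 4.

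**Figure D2:**
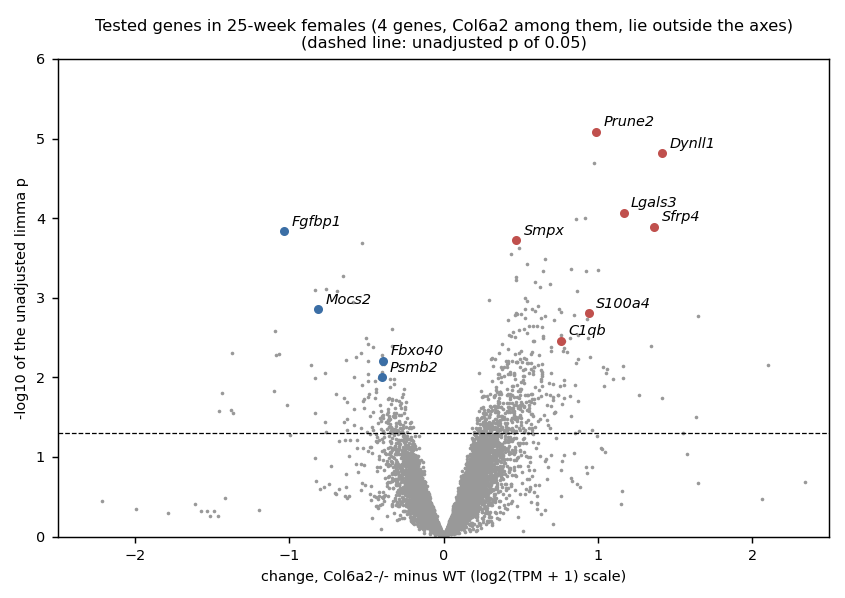
Change on the log2(TPM + 1) scale (x axis) against -log10 of the unadjusted limma p (y axis) for the tested genes in 25-week females; the dashed line marks an unadjusted p of 0.05 and 4 genes, Col6a2 among them, lie outside the axes. Coloured points are named genes, red higher and blue lower in Col6a2-/- mice; more genes lie above the line on the right (462) than on the left (159).

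Immune, matrix and muscle genes were next described by lists. The lists are not independent, as 58 genes belong to more than 1, such as the C1q genes in the macrophage and complement lists. Each list's counts are to be read against the shares of all tested genes, 3.6% higher and 1.24% lower at an unadjusted limma p under 0.05 and 3.8% and 0.999% without overlap, and its median against 0.03. In 9 of the 15 macrophage genes the level was higher at an unadjusted limma p under 0.05, and in 0 it was lower. In 4 of the 15 the groups did not overlap, the C1q genes described below among them. All 15 changes were above 0, with a median of 0.50. The summed level of the list ran from 76.9 to 133 TPM in WT and from 131 to 241 TPM in Col6a2-/- libraries, so the highest WT library lay just above the lowest Col6a2-/- library. The count was 3 without Col6a2-/- replicate 4, 5 without Col6a2-/- replicate 1 and 5 without WT replicate 4, and the median was then 0.37, 0.45 and 0.44. Under the 3 other scalings the median of this list was 0.46 to 0.48, and that of the complement list 0.52 to 0.55. In bulk tissue, more cells of a type and more RNA per cell cannot be told apart.

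Lyz2, the lysozyme of macrophages, had 68.7, 46.9, 34.7 and 36.4 TPM in WT and 90.9, 71.1, 66.1 and 130 TPM in Col6a2-/- libraries, a change of 0.93 (SE 0.26) with a limma adjusted p of 0.447. WT replicate 1 lay within the Col6a2-/- range. Ctss, a lysosomal protease of antigen-presenting cells, changed in males by 1.55, and in females its difference was 0.84 (SE 0.24), with 4.43 to 8.62 TPM in WT and 7.54 to 15.6 TPM in Col6a2-/- libraries. Csf1r, the receptor for the macrophage growth factor, differed by 0.50, and Adgre1, which encodes the F4/80 antigen, by 0.61.

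The genes for the A, B and C chains of C1q, the recognition molecule that starts the classical complement pathway and that tissue macrophages make, varied side by side over the libraries. C1qa had 12.3, 11.5, 7.78 and 8.03 TPM in WT and 20.8, 13.5, 14.0 and 23.2 TPM in Col6a2-/- libraries. C1qb had 10.0, 8.83, 7.21 and 6.96 against 17.5, 12, 11 and 19.4 TPM. C1qc had 10.4, 11.1, 7.72 and 7.45 against 16.4, 13.7, 11.5 and 18.9 TPM. In all 3 the groups did not overlap, Col6a2-/- replicates 4 and 1 were the highest, and WT replicates 3 and 4 the lowest. The changes were 0.78 (SE 0.25), 0.76 (SE 0.24) and 0.66 (SE 0.26), with limma adjusted p of 0.646, 0.573 and 0.873. The 3 genes lie in a cluster on chromosome 4.

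Because the C1q genes varied together, the promoters of C1qb and C1qc are shown, as the 250 bases before the gene start (RefSeq, GRCm38.p6, minus strand, 5′ to 3′). Capitals mark GAGGAA, the core recognised by PU.1, a transcription factor of myeloid cells, or its complement TTCCTC. C1qb lies at chr4:136886201-136886450 with the motif beginning 30 bases before the start, and C1qc at chr4:136892915-136893164 with the motif beginning 193 bases before it.
C1qb: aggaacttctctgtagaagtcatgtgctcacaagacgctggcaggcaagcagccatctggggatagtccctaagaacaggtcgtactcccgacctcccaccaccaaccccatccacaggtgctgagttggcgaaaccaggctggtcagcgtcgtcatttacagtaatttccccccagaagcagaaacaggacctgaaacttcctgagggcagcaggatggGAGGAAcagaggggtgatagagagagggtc
C1qc: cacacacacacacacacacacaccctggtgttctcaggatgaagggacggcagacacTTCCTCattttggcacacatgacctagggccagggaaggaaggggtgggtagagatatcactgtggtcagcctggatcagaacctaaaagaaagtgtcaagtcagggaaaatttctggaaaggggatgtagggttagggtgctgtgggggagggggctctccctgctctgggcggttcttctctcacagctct
On either strand, this motif was found in 7639 of 32851 such windows (23.3%). It was found in 7 of the 11 macrophage genes with a window, in 3 of 11 complement genes and in 6 of 28 matrix genes. A match describes the letters and is not a measured binding site.

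The complement list as a whole had 18 tested genes, of which 17 had a change above 0, 11 were higher at an unadjusted limma p under 0.05 and 9 had no overlap (median change 0.56). Beside C1q it held the plasma cascade genes C3 (0.85, SE 0.32) and C4b (0.87, SE 0.35), which tissue fibroblasts also express. C3 had 33.7, 25.2, 27.0 and 19.3 TPM in WT and 75.3, 33.4, 34.6 and 57.2 TPM in Col6a2-/- libraries, with replicates 1 and 4 again the highest. Cd55, a membrane protein that shields host cells from complement, differed by 0.41. The count of 11 was 6 without Col6a2-/- replicate 1 and 7 without Col6a2-/- replicate 4.

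Among galectin, S100, annexin and cathepsin genes, which mark activated or damaged tissue, 14 of 27 were higher and 0 lower at an unadjusted limma p under 0.05, 12 had no overlap, and the median change was 0.45. The count was 8 without Col6a2-/- replicate 4. S100a10, the partner of annexin A2 at the cell surface, had 24.4, 27.2, 32.3 and 27.2 TPM in WT and 43.7, 42.2, 36.4 and 49.0 TPM in Col6a2-/- libraries (change 0.61, SE 0.18). S100a4, a marker of fibroblasts and macrophages, had 11.4 to 18.9 TPM in WT, and its Col6a2-/- libraries began at the same level and reached 40.2 TPM (change 0.94, SE 0.27; Gm42674 overlaps it). Both genes were called in males, at 1.20 and 1.78.

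Of the 18 chemokine and chemokine receptor genes, 8 were higher and 1 lower at an unadjusted limma p under 0.05, with a median change of 0.30 that was 0.16 without WT replicate 3 and 0.2 without Col6a2-/- replicate 4. Ccl2, which recruits monocytes, had 0.279 to 0.709 TPM in WT and 1.01 to 1.87 TPM in Col6a2-/- libraries, without overlap (change 0.82, SE 0.25). Of these libraries only the Col6a2-/- ones reached 1 TPM, the level set by the filter. Ccl8 was spread more widely, at 0.339 to 1.34 TPM in WT and 1.34 to 9.71 TPM in Col6a2-/- libraries, with the highest value in replicate 1. Ccl6 and Ccl9, made by myeloid cells, differed by 0.93 and 0.83, and each was called once WT replicate 1 was left out. The lower gene was Cxcl14 (-0.53). The count of lower genes was 0 without WT replicate 1 or 2 and without Col6a2-/- replicate 1 or 2.

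Genes of MHC class II, which presents antigen to helper T cells, had changes above 0 in 7 of 7, with a median of 0.59. In 5 of 7 the unadjusted limma p was under 0.05, yet the groups overlapped in every one. H2-Aa had 49.9, 26.3, 17.9 and 20.0 TPM in WT and 57.5, 34.4, 28.5 and 74.2 TPM in Col6a2-/- libraries, so that WT replicate 1 stood above Col6a2-/- replicates 2 and 3. The count was 2 without Col6a2-/- replicate 1 or 4, or without WT replicate 3 or 4. It was 7 without WT replicate 1, and the median was then 0.87.

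Markers of T cells, NK cells and neutrophils were low. The 8 T and NK cell genes stayed below the filter, with summed levels up to 0.504 TPM in WT and 1.17 TPM in Col6a2-/- libraries. Ly6g, the defining marker of neutrophils, was at 0 in all libraries of the series. Other neutrophil genes below the filter were mixed. Csf3r had 0.0306 to 0.109 TPM in WT and 0.169 to 0.233 TPM in Col6a2-/- libraries, and Cxcr2 had 0 and 0.0173 to 0.0583 TPM. Ngp reached 0 TPM in WT and 0.566 TPM in Col6a2-/- libraries, and Retnlg 1.12 and 0.417 TPM. The tested neutrophil genes S100a8 and S100a9 differed by 0.64 each, at 0.115 to 1.19 TPM in WT and 0.732 to 2.86 TPM in Col6a2-/- libraries, and S100a9 by 0.4 without Col6a2-/- replicate 4. Summed levels of the B and plasma cell list were 24.7 to 34.8 TPM in WT and 20.3 to 129 TPM in Col6a2-/- libraries, and the top was replicate 1.

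**Figure D3:**
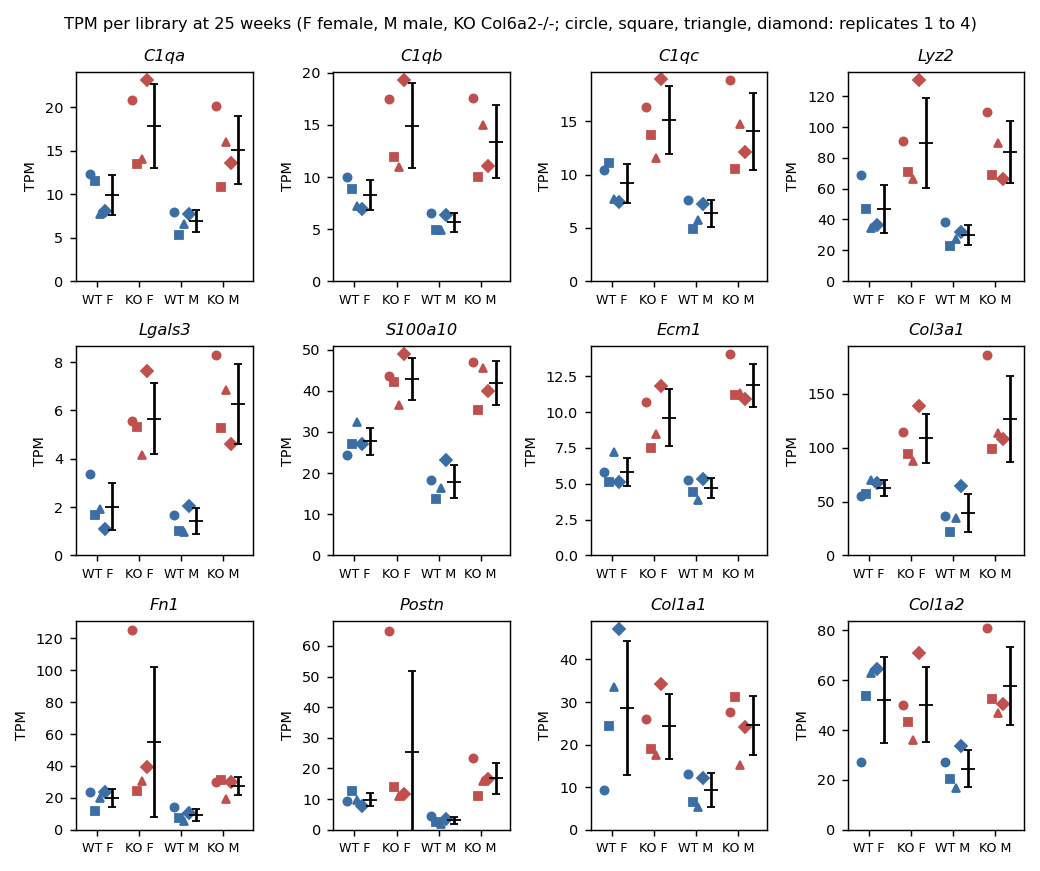
TPM in each 25-week library for 12 immune and matrix genes, with WT and Col6a2-/- (KO) females (F) and males (M) side by side; symbols are replicates 1 to 4 and black bars the mean ± SD of 4 libraries. C1q chains are separated between the female groups, Fn1 and Postn have their highest value in Col6a2-/- female replicate 1, and Col1a1 and Col1a2 overlap in females.

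Matrix genes differed among themselves. Of 38 fibrillar collagen and matrix genes, 30 had a change above 0, 7 were higher and 0 lower at an unadjusted limma p under 0.05, and the median was 0.20. The count was 4 without Col6a2-/- replicate 1 or 4 or without WT replicate 1, and the median was 0.09 without Col6a2-/- replicate 4. Summed levels overlapped, with 416 to 619 TPM in WT and 510 to 885 TPM in Col6a2-/- libraries.

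Col3a1, the collagen of loose and healing tissue, had 54.8, 57.4, 69.8 and 67.0 TPM in WT and 114, 94.4, 87.4 and 138 TPM in Col6a2-/- libraries, a change of 0.78 (SE 0.31; Gm47302 overlaps it). Every Col6a2-/- library was above every WT library. Ecm1, a secreted glycoprotein, had 5.14 to 7.2 TPM in WT and 7.46 to 11.8 TPM in Col6a2-/- libraries (change 0.62, SE 0.17; Mir7014 overlaps it). Cilp, a matrix protein known to bind TGF-β, had 20.1, 17.8, 28.8 and 13.1 TPM in WT and 34.8, 27.6, 32.2 and 67.0 TPM in Col6a2-/- libraries, with a change of 0.95 (SE 0.32) that was 0.68 without Col6a2-/- replicate 4. Aspn, a small proteoglycan that binds TGF-β and collagen, differed by 0.61 (SE 0.21; its antisense neighbour is Cenpp).

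The collagen I genes showed no such difference. Col1a1 had 9.42, 24.4, 33.5 and 47.1 TPM in WT and 26.0, 19.1, 17.6 and 34.3 TPM in Col6a2-/- libraries, a change of -0.07 (SE 0.49). Col1a2 had 27.2 to 64.7 TPM in WT and 36.1 to 71.1 TPM in Col6a2-/- libraries (-0.02, SE 0.37). The 95% intervals ran from -1.08 to 0.93 and from -0.78 to 0.74, so that a change of 1.5-fold either way lies within them.

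Proteins that bind collagen VI or sit beside it were described as a list of 18 tested genes, 4 higher and 1, Col6a2, lower at an unadjusted limma p under 0.05. Without Col6a2-/- replicate 4, 2 were higher, and the median was 0.11. Fn1, for fibronectin, had 23.9, 12.0, 19.7 and 23.5 TPM in WT and 125, 24.3, 30.7 and 39.6 TPM in Col6a2-/- libraries. Its change was 1.16 (SE 0.40) and was 0.67 without Col6a2-/- replicate 1 (an antisense gene, Apol7d, is annotated over it). Bgn, for biglycan, had 17.4 to 18.4 TPM in WT, a narrow range, and 21.9 to 39.3 TPM in Col6a2-/- libraries (0.55, SE 0.23). Cd44, the hyaluronan receptor, had 2.97 to 4.39 TPM in WT and 4.58 to 6.65 TPM in Col6a2-/- libraries (0.58, SE 0.21).

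TGF-β ligand genes were described first by their own changes. These were 0.04 for Tgfb1 (SE 0.15), -0.09 for Tgfb2 (SE 0.16) and -0.22 for Tgfb3 (SE 0.14), and antisense genes overlap Tgfb2 and Tgfb3. Among 25 ligand, latency and receptor genes, 1 was higher and 1 lower at an unadjusted limma p under 0.05, with a median of 0.02. These were Fstl1, a secreted modulator of the family (22.1 to 23.7 TPM in WT, 28.4 to 38.2 TPM in Col6a2-/- libraries, change 0.50), and Gdf11, a ligand (1.24 to 2.08 and 0.591 to 1.13 TPM, change -0.44). Without Col6a2-/- replicate 4, 0 were higher and 3 lower, and without Col6a2-/- replicate 2, 3 were higher. Without Col6a2-/- replicate 1, 0 were higher and 0 lower, and 0 were higher without WT replicate 1 or 2 and 0 lower without WT replicate 3. The median was -0.04 without Col6a2-/- replicate 4 and -0.02 without WT replicate 4, and over the left-out libraries and scalings it ran from -0.04 to 0.04. With median-of-ratios size factors or quantile normalization, 1 was higher and 4 lower. Of 23 genes known to be induced by TGF-β, 5 were higher and 0 lower (median 0.15): Fn1, Junb, Col3a1, Id3 and Postn. Without Col6a2-/- replicate 1 or WT replicate 4 the count was 2, and without WT replicate 1 or Col6a2-/- replicate 3 it was 3. Without WT replicate 2, 2 were lower, and without WT replicate 3 the median was 0.26. With quantile normalization the median of this list was 0.095.

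Of the fibroblast and fibro-adipogenic progenitor markers, 3 of 12 were higher and 0 lower, and the summed level was 606 to 849 TPM in WT and 818 to 1229 TPM in Col6a2-/- libraries. Pdgfra, the receptor that defines these cells, had 9.39 to 10.7 TPM in WT and 10.6 to 16.9 TPM in Col6a2-/- libraries, a difference of 0.43 (SE 0.17; short and antisense genes overlap it). Of the 12 fibroblast and progenitor markers, 10 had a change above 0, with a median of 0.27, and the lowest change was -0.40. Under each of the other scalings, and without WT replicate 3 or Col6a2-/- replicate 4, 1 of the 12 was lower. Without Col6a2-/- replicate 4, 2 were higher. Over the scalings and left-out libraries the median ran from 0.207 to 0.355. The part of cell number in the matrix differences was not tested. Endothelial markers had a median of -0.01 and pericyte and smooth muscle markers a median of -0.13, with 0 higher and 0 lower in both lists of 10. Without WT replicate 2, 4 of the 10 pericyte and smooth muscle genes were lower, and the median of that list was -0.04 without WT replicate 1 and -0.205 without Col6a2-/- replicate 1.

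Muscle fibre genes lay slightly on the lower side. Of 18 fast fibre genes, 17 had a change below 0, with a median of -0.21, and 4 were lower at an unadjusted limma p under 0.05. The change was below 0 for most of the list under each scaling, and the count of lower genes was 11 with median-of-ratios size factors and 2 with quantile normalization. It was 8 without Col6a2-/- replicate 4, 1 without Col6a2-/- replicate 1, and 2 without WT replicate 2 or Col6a2-/- replicate 3. Mylk2, the kinase of the fast myosin light chain, had 128, 140, 149 and 112 TPM in WT and 74.5, 79.8, 97.4 and 126 TPM in Col6a2-/- libraries (-0.50, SE 0.16), with Col6a2-/- replicate 4 inside the WT range. Actn3 (-0.49), for the α-actinin of fast fibres, and Pvalb (-0.52), the calcium buffer of fast fibres, had the same order, replicate 4 being nearest to WT. Slow fibre genes had a median of 0.08, which was -0.06 without Col6a2-/- replicate 4, -0.01 without WT replicate 3 and 0.18 without WT replicate 2, with 0 of 13 at an unadjusted p under 0.05, and in that list Col6a2-/- replicate 4 was high, with 241 TPM of Tnnc1 against 46.9 to 119 TPM in the other 7 libraries.

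Among regeneration and denervation genes, 17 of 22 and 16 of 19 changes were above 0, with medians of 0.13 and 0.19. The regeneration median was 0.07 without Col6a2-/- replicate 4, 0.06 with quantile normalization, and 0.20 without WT replicate 3 or Col6a2-/- replicate 2. Myh3, embryonic myosin, had 1.31, 1.27, 1.47 and 1.30 TPM in WT and 2.23, 2.29, 1.89 and 5.69 TPM in Col6a2-/- libraries. The groups did not overlap, and the change of 0.70 (SE 0.22) was 0.42 without Col6a2-/- replicate 4. Runx1, a factor induced on denervation, had 0.524 to 0.681 TPM in WT and 0.967 to 1.69 TPM in Col6a2-/- libraries (0.52, SE 0.19; an antisense gene overlaps it). Sln had 3.78, 2.97, 1.24 and 1.93 TPM in WT and 3.90, 4.42, 5.2 and 17.9 TPM in Col6a2-/- libraries, and its change of 1.16 (SE 0.42) was 0.71 without Col6a2-/- replicate 4. In all, 3 of 22 regeneration genes and 2 of 19 denervation genes were higher at an unadjusted limma p under 0.05, and 0 and 1 were lower. Without Col6a2-/- replicate 4 the counts were 1 and 1, and without WT replicate 1 that of regeneration genes was 1.

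Metal and stress genes gave single differences. Mt2, a metallothionein that binds zinc, had 1.54, 1.97, 3.42 and 2.68 TPM in WT and 6.94, 4.08, 7.41 and 6.56 TPM in Col6a2-/- libraries (1.10, SE 0.40; an antisense gene overlaps it). Mt1 had 6.97 to 11.9 TPM in WT and 13.7 to 17.4 TPM in Col6a2-/- libraries (0.74, SE 0.29). Both were without overlap, while the list of 26 metallothionein and oxidative stress genes had a median of 0.03. Chac1, a target of the integrated stress response that degrades glutathione, was lower, with 12.9, 14.0, 20.0 and 10.9 TPM in WT and 8.41, 5.57, 5.72 and 4.93 TPM in Col6a2-/- libraries (-1.10, SE 0.43).

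Of the protein degradation genes, Fbxo40, a muscle ubiquitin ligase subunit that acts on IRS1, had 56.2 to 67.0 TPM in WT and 43.1 to 48.6 TPM in Col6a2-/- libraries (-0.39, SE 0.13). Psmb2, a proteasome subunit, had 31.4 to 40.4 TPM in WT and 25.6 to 28.2 TPM in Col6a2-/- libraries (-0.40, SE 0.14), and it was the 1 of 30 proteasome genes at an unadjusted limma p under 0.05. Of the 30, 5 had a change above 0, and 4 were lower with median-of-ratios size factors and 2 with quantile normalization. The classical atrophy ligases Trim63 (-0.21, SE 0.17) and Fbxo32 (-0.28, SE 0.20) overlapped between the groups. Interferon-stimulated genes had 0 of 25 higher and 0 lower at an unadjusted p under 0.05 (median -0.01). Nuclear-encoded genes of oxidative phosphorylation and cytosolic ribosomal protein genes had medians of 0.04 and 0.08. In each of these lists 2 genes were higher, of 37 and of 40, against 3.6% of all tested genes, and 0 with median-of-ratios size factors. With quantile normalization the counts were 1 and 4, and after rescaling without mitochondrial and Rn7s genes 0 and 1. The first count was 0 without WT replicate 4 or Col6a2-/- replicate 1, 1 without WT replicate 3 or Col6a2-/- replicate 3, and 3 without Col6a2-/- replicate 2. The second was 0 without Col6a2-/- replicate 4, 3 without Col6a2-/- replicate 3, 2 without WT replicate 3, and 1 with any other single library left out. Over the scalings and left-out libraries the medians ran from -0.0023 to 0.11 and from 0.02 to 0.12. Glycolysis, lipid oxidation, circadian and cell cycle genes had 0 higher and 0 lower with all 8 libraries as deposited.

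Early response genes, which are switched on within minutes of a stimulus, had 16 of 17 changes above 0, with a median of 0.38. At an unadjusted limma p under 0.05, 4 were higher: Zfp36, which destabilises inflammatory mRNA (0.55), Ier2 (0.39), Junb (0.69) and Klf2 (0.72). The count was 2 and the median 0.24 without Col6a2-/- replicate 3. Fos varied widely, at 1.17, 1.13, 3.46 and 4.71 TPM in WT and 2.49, 5.81, 11.6 and 5.57 TPM in Col6a2-/- libraries, a change of 1.02 (SE 0.55).

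**Figure D4:**
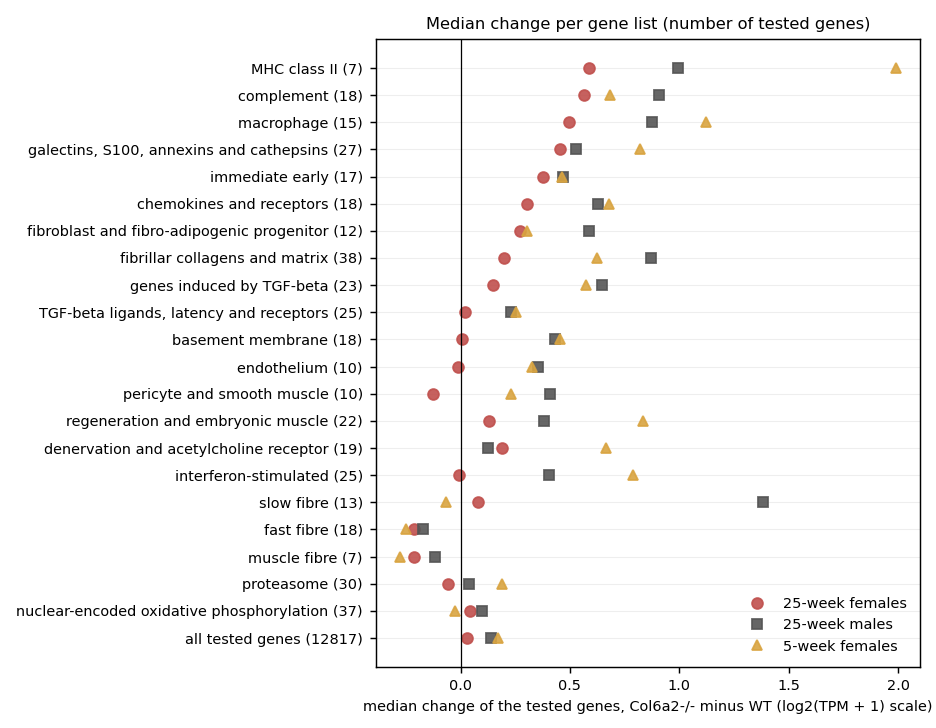
Median change of the tested genes of selected lists, Col6a2-/- minus WT on the log2(TPM + 1) scale, in 25-week females (circles), 25-week males (squares) and 5-week females (triangles); the number of tested genes is in parentheses. Among the lists drawn, the female medians at 25 weeks are highest for MHC class II (0.59), complement (0.56) and macrophage genes (0.50), and all tested genes have a median of 0.03.

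The same genotype contrast called 388 genes (3.03%) in 25-week males, 373 higher (2.91%) and 15 lower (0.117%). The split was 496 and 313 with median-of-ratios size factors, 204 and 24 after rescaling without mitochondrial and Rn7s genes, and 296 and 180 with quantile normalization. The count of 388 moved over 1.5-fold with 7 of the 8 male libraries, from 56 without Col6a2-/- male replicate 1 to 612 without Col6a2-/- male replicate 2. The female and male groups share no mouse, so female values were set beside male ones. Their p-values are not independent, since the same fit gave both, with a spread per gene shared by all groups. A gene with a small spread tends to a small p in each contrast. Of the 373 genes called higher in males, 358 had a female change above 0, against 59.2% of all tested genes. Of them 147 were higher at an unadjusted limma p under 0.05 in females, against 3.6%, and 108 had no overlap, against 3.8%. Their median change was 0.31 in females and 0.72 in males, and male values were those used to choose them. The count of 147 was 92 without Col6a2-/- female replicate 4, 97 without Col6a2-/- female replicate 1 and 97 without WT female replicate 4.

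**Figure D5:**
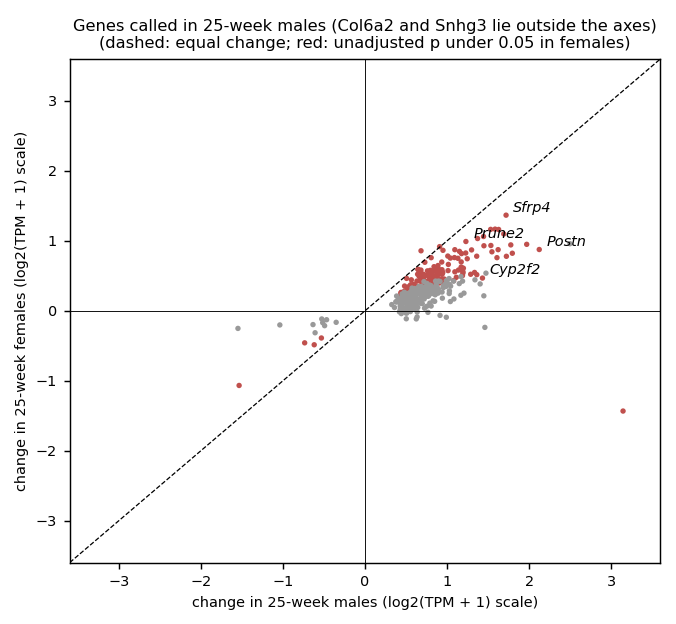
Change in 25-week males (x axis) against change in 25-week females (y axis), both on the log2(TPM + 1) scale, for 386 of the 388 genes called in males; red points had an unadjusted limma p under 0.05 in females (154 genes) and the dashed line marks equal changes. Of the 373 genes called higher in males, 371 had a female change below the male one. They were chosen by their male values, so this count is a description only.

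The difference between the sexes was tested as the interaction of genotype and sex at 25 weeks. It was called for 2 of 12817 genes (0.0156%), the overlapping genes Snhg3 and Snora73a, whose levels vary from 5.23 to 113 TPM for Snhg3 within WT females alone. At an unadjusted limma p under 0.05 the female change was below the male one for 385 genes (3%) and above it for 47 (0.367%). In this paragraph a smaller change is one that is lower by sign, which need not be a weaker one. The pericyte and smooth muscle list, for example, had a median change of -0.13 in females and 0.41 in males. Under the same 3 scalings these were 336 and 294, 210 and 77, and 195 and 297 genes. The number with a smaller female change was 231 without Col6a2-/- female replicate 2 and 580 without WT female replicate 4. Among matrix genes it was smaller for 12 of 38, among basement membrane genes for 6 of 18, among pericyte and smooth muscle markers for 5 of 10 and among endothelial markers for 4 of 10. The median differences of these lists were -0.66, -0.37, -0.4 and -0.38, against -0.11 for all tested genes. Those of tenocyte, adipocyte and slow fibre genes were -0.92, -1 and -0.99. At an unadjusted limma p under 0.05, 1 of 8, 0 of 10 and 0 of 13 of them had a smaller female change. The adipocyte median was -0.54 without Col6a2-/- female replicate 4 and -1.26 without WT female replicate 4. The number of matrix genes with a smaller female change was 7 with quantile normalization and 9 after rescaling. It was 1 without Col6a2-/- female replicate 3, 4 without WT female replicate 3 or Col6a2-/- female replicate 2, and 17 without Col6a2-/- female replicate 4. The number of basement membrane genes was 3 after rescaling, 3 without WT female replicate 1 or 3 and 2 without Col6a2-/- female replicate 2. That of endothelial markers was 2 under each of the 3 scalings. It was also 2 without WT female replicate 1 or Col6a2-/- female replicate 4, and 5 without WT female replicate 4.

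In 4 genes chosen after their values were seen, the ratio of female to male mean TPM was larger in WT than in Col6a2-/- mice. Col3a1 had 62.3 TPM in WT females and 39.1 in WT males, and 109 and 126 TPM in Col6a2-/- females and males. Bgn had 17.9 and 9.31 TPM in WT females and males, and 27.4 and 25.2 TPM in Col6a2-/- females and males. S100a10 had 27.8 and 17.9 TPM in WT and 42.9 and 42.0 TPM in Col6a2-/- mice, in the same order. C1qa had 9.90 and 6.91 TPM in WT and 17.9 and 15.1 TPM in Col6a2-/- mice. The interactions of these 4 genes had limma adjusted p of 0.99.

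The 8 further genes that head the male comparison were chosen by their male values, so their smaller female changes are given as a description only. Mustn1, a gene of muscle repair, differed by 0.52 in females and rose by 1.36 in males, and Tppp3, a tubulin-binding protein of tendon progenitors, by 0.76 and 1.61. Cyp2f2, a cytochrome P450, differed by 0.47 in females (0.25 without Col6a2-/- replicate 1) and 1.43 in males, and Ecm1, S100a10, S100a4, Ctss and Cilp likewise had male changes of 1.17, 1.20, 1.78, 1.55 and 1.97.

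In 5-week females 1648 genes were called (12.9%), 1575 of them higher (12.3%) and 73 lower (0.57%). The split was 1012 and 764 with median-of-ratios size factors, 810 and 88 after the rescaling and 834 and 768 with quantile normalization. Of these 1575, 1386 had a change above 0 at 25 weeks, against 59.2% of all tested genes, 248 were higher at an unadjusted limma p under 0.05, against 3.6%, and the median was 0.16, against 0.57 at 5 weeks, where they were chosen. The count of 248 was 138 without Col6a2-/- replicate 4, 163 without Col6a2-/- replicate 1 and 145 without WT replicate 4 of the 25-week females. Here too the p-values at both ages rest on the same spread per gene. The interaction of genotype and age in females was called for 15 genes (0.117%), all with a smaller change at 25 weeks. With median-of-ratios size factors and with quantile normalization the change at 25 weeks was above that at 5 weeks for 2 and below it for 26 and 28. The 15 genes included the muscle fusion genes Mymk (0.16 at 25 weeks, 1.97 at 5 weeks) and Mymx (0.32 and 3.14), the embryonic light chain Myl4 (0.39 and 3.14) and the fetal acetylcholine receptor subunit Chrng (0.13 and 1.43). Mymk reached at most 0.162 TPM in WT and 0.6 TPM in Col6a2-/- females at 25 weeks. Without Col6a2-/- replicate 4 of the 25-week females the change was 0.02 for Mymk, 0.05 for Chrng and 0.19 for Myl4, and without WT replicate 3 it was 0.62 for Myl4. The count of 1648 ran from 473 without Col6a2-/- replicate 2 to 3865 without Col6a2-/- replicate 4 of that age, and without the latter the interaction count was 318.

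The position of Col6a2 was examined because the allele and its flanks come from C57BL/6N. Within 1 Mb of Col6a2, 29 genes were tested, of which 1 was higher at an unadjusted limma p under 0.05 and 0 were lower. The gene was Itgb2, the β2 integrin of leukocytes, with 0.915 to 2.42 TPM in WT and 1.87 to 3.09 TPM in Col6a2-/- libraries (0.58, SE 0.20). Within 5 Mb, 3 of 135 were higher and 2 lower. Over all tested genes these shares were 3.6% and 1.24%.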

How the data were processed

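Each deposited table holds 1 library with coverage, FPKM and TPM per gene, per the file headers. The authors' TPM values have 1 common total across libraries and were summed here per gene ID. FPKM and coverage signal, as deposited by the authors, served to infer relative depth, and FPKM also as an alternative unit. The submitters' processing notes name FastQC, MultiQC, Trimmomatic, HISAT2, SAMtools and StringTie and build GRCm38; versions, annotation and strand use are not given in the sources used here. Of 53801 gene IDs, 53620 are in GENCODE M21.

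No count was used, so log2(TPM + 1) was fitted, for genes that reached 1 TPM in 4 or more libraries, with limma 3.58.1 in R 4.3.3 (8 group means, 32 libraries, trended eBayes, 24 residual degrees of freedom). All limma tests were two-sided, with Benjamini-Hochberg adjustment over 12817 genes, and 5 contrasts were tested. Col6a2 also had an exact permutation test. Tables and plots used Python 3.11.15, pandas 2.3.3, numpy 2.4.6 and matplotlib 3.10.9.

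The labels place 4 mice in each group, and nothing states how they were housed or processed, so p-values measure the spread between these samples. Members, 47 gene lists and the naming rule were chosen with earlier results of these data known. The rule gave every collagen VI chain, the 12 higher and 8 lower genes with the smallest p among those without overlap, the top 10 genes of 25-week males, up to 6 of each interaction, up to 4 genes of each list, and up to 10 genes called in any alternative, by smallest p. Not all of these are in the text; other genes named were chosen after their values were seen. Promoters came from RefSeq; C1qa had no entry.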

Additional observations from a re-analysis of the deposited data

Results flagged for a closer look

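In groups of 4 libraries, a library far from the other 3 was looked for by Dixon's criterion, which marks about 1 group in 20 by chance. The genes screened were 105 named here, in 182 groups whose highest library reached 1 TPM, and 18 groups had such a library. Some of these genes, Acly, Elovl6 and Postn included, were named after a library was seen to stand apart. The chance rate therefore does not apply to this set, and the count of 18 is a description only. In Col6a2-/- replicate 1 these were Igkc (38.3 TPM against 0.167 to 0.944 in the other Col6a2-/- females), Postn (65.0 against 11 to 13.9), Fn1 (125 against 24.3 to 39.6) and Cyp2f2 (3.31 against 1.22 to 1.53). In Col6a2-/- replicate 2 they were Acly (58.2 against 6.29 to 11.1), Elovl6 (15.0 against 0.628 to 1.74) and Fbxo40, which was low (43.1 against 48.0 to 48.6). Zfp36 had 3.08 TPM in Col6a2-/- replicate 3, against 2.17 to 2.21. In Col6a2-/- replicate 4 they were Sln (17.9 against 3.90 to 5.2), Myh3 (5.69 against 1.89 to 2.29) and S100a9 (2.86 against 0.89 to 1.11). In WT replicate 1 they were Ccl6 (17.8 TPM against 4.68 to 5.92 in the other WT females), Itgb2 (2.42 against 0.915 to 1.09) and S100a8 (1.19 against 0.223 to 0.306). Srrm4os had 1.03 TPM in WT replicate 2, against 0.403 to 0.510. In WT replicate 3 they were Dmxl2 (1.53 against 1.16 to 1.21), Id3 (11.9 against 7.14 to 7.51) and Myl4 (6.03 against 2.43 to 2.81).

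The genotype effect differed between the sexes at 25 weeks, by limma's interaction term, for Snhg3 (6.16, adjusted p 0.018; 2.1 in females and -4.06 in males) and for Snora73a (-4.58, adjusted p 0.018; -1.43 and 3.15). Snora73a lies within Snhg3. With a female library left out, the female change ran from 1.40 to 2.80 for Snhg3 and from -1.94 to -0.85 for Snora73a. In WT females Snhg3 had 101, 5.23, 113 and 6.31 TPM and Snora73a 37.3, 363, 37.1 and 259 TPM in replicates 1 to 4, so the libraries high in the first were low in the second.

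The genotype effect in females was smaller at 25 than at 5 weeks, by limma's interaction term, for 15 genes. The largest differences were -3.88 for Aldh3a1, -3.22 for Sln, -2.82 for Mymx, -2.76 for Myl4 and -2.47 for Krt18. They were -1.84 for Lgals3, -1.81 for Mymk, -1.76 for Eda2r, -1.48 for Mfsd7a and -1.34 for Tnnt2. They were -1.30 for Chrng, -1.30 for Krt8, -1.27 for Mt3, -1.01 for Igfbp2 and -0.77 for Plekhh1. Adjusted p ran from 2.4e-06 for Aldh3a1 to 0.0437 for Mt3. For Lgals3 and Sln the change at 25 weeks was 1.17 and 1.16, and for the other 13 it was at most 0.45.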

How the results depend on the processing

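The Col6a2 change kept its direction and call in every setting, from -3.80 to -3.75 with a library left out and -6.81 with a pseudocount of 0.1. The count of called genes at 25 weeks in females, 1, was 2 with a pseudocount of 0.1, 4 without a filter, 2 with a filter on the 8 libraries, 12 with median-of-ratios size factors, 3 after rescaling without mitochondrial and Rn7s genes, 4 with quantile normalization, 7 with only 8 libraries, 6 with only the 16 of 25 weeks and 2 with robust eBayes. It was 1 to 5 with a library left out. Same-numbered libraries correlated from -0.00846 to 0.118 and share only a number; with the replicate block the count was 2, and 4 of 8 libraries correlated best with their own number.

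Counts higher at an unadjusted p (462) were 1150 without a filter, 224 at 5 TPM, 825 with 8 and 755 with 16 libraries, and 286 to 569 with a library left out. Counts lower (159) were 422 without a filter, 581 with median-of-ratios factors, 536 with quantile normalization and 97 to 251 with a library left out. Lower genes without overlap (128) were 368 and 348 under those scalings. The median of all genes was 0.000643 to 0.0515 with a library left out.

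The interaction with sex (2) gave 1 without a filter and under either scaling, 0 with 16 libraries or robust eBayes, and 0 to 2 with a library left out. That with age (15) gave 7 with the pseudocount, 23 without a filter, 8 at 5 TPM, 28 and 30 under the scalings, and 9 to 318 with a library left out. In 25-week males (388) the count was 736, 133, 251 and 809 with the pseudocount, no filter, 5 TPM and median-of-ratios factors, 228 after rescaling, 1075 with 16 libraries and 56 to 612 with a library left out. In 5-week females (1648) it was 722 at 5 TPM, 898 after rescaling and 473 to 3865.

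The change of Aldh3a1 (0.0008) reversed to -0.00561, -0.00559 and -0.0474 under median-of-ratios, rescaled and quantile values, and to -0.0524, -0.00519, -0.0304 and -0.0270 without WT replicate 1, WT replicate 4, Col6a2-/- replicate 3 and Col6a2-/- replicate 4, and was 0.0494 without WT replicate 2. The cause was not tested in any of these cases. List counts and medians under left-out libraries and scalings were added after seeing the data. Read counts were not used, so the precision of genes under about 1 TPM is unknown.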
